A study of Homo sapiens with 30 samples.

Results

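HD-MAR-2 is a malignant T-cell line that grew out of a T-cell leukaemia. Its response to CHOEP was read from 6 of the 30 arrays of the series, 3 of cultures exposed to CHOEP for 24 h and 3 of untreated cultures. The other 24 arrays hold the same pair of groups in SUP-T1, KARPAS-299, JURKAT and HH, and serve here only as context. CHOEP is given to patients with T-cell lymphoma, and the study asked which genes malignant T cells switch on or off under it. All genes with a detection p-value under 0.01 on at least 3 of the 6 HD-MAR-2 arrays were described, which left 10159 of 20046 genes with a named probe. The drug mixture was used at the inhibitory concentration IC50 of HD-MAR-2, and the other lines received their own, so that doses differ between lines. The submitters describe the 3 cultures of a group as biological replicates. All 6 are cultures of 1 line, and no agent of the mixture was given on its own, so that the effects of the single agents cannot be told apart.

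CHOEP joins drugs that act on different parts of a dividing cell. Doxorubicin and etoposide trap topoisomerase II on DNA, vincristine blocks the assembly of microtubules, and cyclophosphamide, a prodrug that the liver activates, alkylates DNA. Prednisone, once converted to prednisolone, binds the glucocorticoid receptor NR3C1, a transcription factor that moves to the nucleus and switches on genes such as TSC22D3 and FKBP5, and that can kill lymphoid cells through the BH3-only protein BIM. In a proliferating cell the E2F factors, held back by RB proteins until cyclin D and cyclin E kinases phosphorylate these, drive the genes of DNA replication at the start of S phase.

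Values below are normalised signals on the log2 scale, so that a difference of 1 is a 2-fold change, and a fold change is CHOEP minus untreated on that scale with its standard error (SE). A gene is said to have risen or fallen where limma's test gave a p-value, corrected for 17680 kept probes after Benjamini and Hochberg, under 0.05, and is called where its fold change was also at least 2. Adjusted p-values in the text are from this test. Of several probes for a gene the brightest on average over the 6 arrays was taken. Where 1 group of arrays detected a gene with none of its probes, a bound is given, for which each array of that group takes its lowest detected signal, or the gene's own signal if higher.

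The label of the line was set against its markers. Of 16 genes listed as markers of T cells, 14 were detected on all 6 arrays, among them CD3D, CD3E, CD3G, CD247, CD2, CD5, CD7 and LCK. The other 2, ALK and TNFRSF8, mark anaplastic large-cell lymphoma and were detected on none. Of 27 markers of B, myeloid, NK, red and non-blood cells 5 passed the detection filter (CD79A, CD79B, CD14, ITGAM and FCGR3A), and the defining genes MS4A1, PAX5, MPO, SPI1, NCAM1 and HBB were detected on none of the 6 arrays. The summed linear signal of these 5 was 796 to 893 with CHOEP and 625 to 681 untreated, against 91974 to 94826 with CHOEP and 82843 to 89109 untreated for the T-cell markers. CD79A (0.67), FCGR3A (0.67) and CD79B (0.41) rose with CHOEP, CD79B not without untreated replicate 1, and the part of such transcripts in the results below was not tested.

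On the 6 arrays 16558 to 17923 probes were detected, and the median signal before normalisation was 81.1 to 90.9 with CHOEP and 100.8 to 103.9 untreated. All 6 arrays lay on 1 chip with the groups at fixed positions, so that position and treatment cannot be told apart. The first principal component held 68.6% of the variance and separated the groups. The second held 16.2% and set untreated replicate 1 (28.6) apart from untreated replicates 2 (-18.9) and 3 (-16.2). In that array 88 genes differed by more than 1 from the mean of the other untreated arrays, against 4 to 8 genes for any other array compared in this way. It was kept, and the main counts and several lists and genes are also given without it.

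In HD-MAR-2 CHOEP raised 1879 of 10159 genes (18.5%) and lowered 1963 (19.3%). With the fold threshold 231 genes were called up (2.27%) and 222 down (2.19%). In 5152 genes (50.7%) the CHOEP-treated and untreated arrays did not overlap, in 2489 of them (24.5%) with CHOEP higher and in 2663 (26.2%) with CHOEP lower. The median change over all genes was -0.01. It was -0.26 when each array was scaled to the same median, and the calls then divided into 122 up and 507 down, against 126 up and 79 down with the normalised values the authors deposited. Without untreated replicate 1, 220 genes were called up, 195 of them among the 231, and 212 down, 191 of them among the 222. In bulk RNA fewer cells of a kind and less RNA per cell cannot be told apart, and this holds for each change below.

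The gene with the largest rise was TSC22D3, which encodes GILZ, a leucine zipper protein induced by glucocorticoids. Its signal was 14.05, 13.89 and 14.03 with CHOEP and 9.88, 9.18 and 9.24 untreated, a 23.6-fold difference (log2 4.56, SE 0.15, adjusted p = 1.6e-18). All 3 CHOEP-treated arrays were above all untreated ones, and the untreated spread was made by replicate 1. PIK3IP1, an inhibitor of the p110 subunit of PI3 kinase, had 13.36, 13.20 and 13.25 with CHOEP and 8.66, 8.96 and 8.98 untreated (21.2-fold, adjusted p = 2.3e-15). BMF, which neutralises BCL2 through its BH3 domain, had 10.34, 10.54 and 10.46 with CHOEP and 6.61, 6.58 and 6.60 untreated (14.4-fold, adjusted p = 5.8e-16). In both genes the arrays of a group lay close together and the groups far apart.
DDIT4, an inhibitor of mTORC1 also known as REDD1, had 13.23, 13.20 and 13.22 with CHOEP and 9.48, 9.73 and 9.76 untreated (11.8-fold, adjusted p = 9.1e-17).

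The other 11 of the 15 genes with the largest rise were PFKFB2, CROCC, ISG20, GSTM2, ANGPTL7, GSTM1, TP53INP1, NFIL3, SLC9A5, ZFP36L2 and H4C1, with changes from 3.48 in PFKFB2 to 2.36 in H4C1. PFKFB2 makes fructose 2,6-bisphosphate, an activator of glycolysis. ISG20 is an exonuclease induced by interferon and in T cells by glucocorticoids, TP53INP1 is a stress protein that acts in autophagy, and NFIL3 and ZFP36L2 are a transcription factor and an mRNA decay factor. GSTM1 and GSTM2 are glutathione transferases of similar sequence, and their probes may bind both transcripts. The 2 had signals between 11.03 and 11.43 with CHOEP and between 8.14 and 8.49 untreated.

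TPRG1, a gene of little known function, showed the largest fall. Its signal was 6.28, 6.05 and 5.75 with CHOEP, where 1 of 3 arrays detected it, and 9.22, 9.14 and 9.37 untreated, a 9.29-fold difference (log2 -3.22, SE 0.13, adjusted p = 1.9e-16). CA2, a carbonic anhydrase, had 7.56, 7.53 and 7.34 with CHOEP and 10.56, 10.13 and 10.27 untreated (7.16-fold). CCND2, the D-type cyclin that opens the way from G1 to S phase, had 8.35, 8.36 and 8.42 with CHOEP and 10.81, 10.65 and 10.77 untreated (5.16-fold, adjusted p = 3.8e-16). In all 3 genes every CHOEP-treated array was below every untreated one.

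Of the other 12 genes with the largest fall, 5 were detected on all untreated arrays and on none with CHOEP. These were CCR4, a chemokine receptor (at least 2.73-fold lower), XYLB, a xylulokinase (at least 2.68-fold), COBLL1 (at least 2.35-fold), VCAM1, an adhesion molecule (at least 2.29-fold), and NEK6, a mitotic kinase (at least 2.16-fold), with adjusted p-values of 7.3e-13, 3.0e-09, 2.5e-11, 3.1e-15 and 5.8e-09. PALS2, PRODH, HAND1, MT1E, PLD6, BATF3 and SLC35F2 fell by 1.91 to 1.68. HAND1 is a basic helix-loop-helix factor of heart development, and in HD-MAR-2 it had 10.81, 10.74 and 10.86 with CHOEP and 12.79, 12.62 and 12.55 untreated. BATF3 is an AP-1 factor of lymphoid and dendritic cells. MT1E shares most of its sequence with other metallothioneins, so that its probe may also bind their transcripts.

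**Figure D1:**
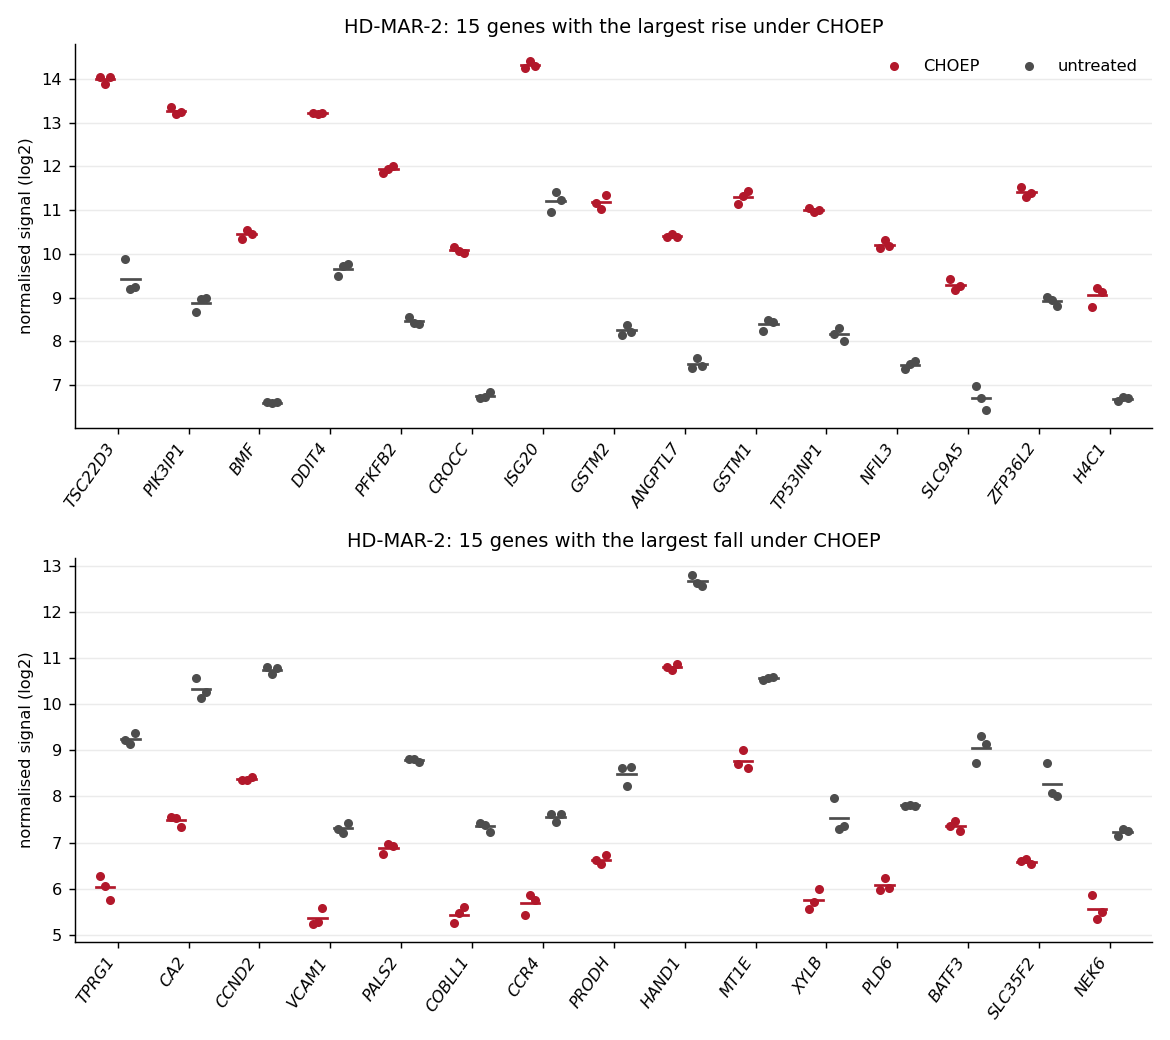
Normalised signal (log2) of the 15 genes with the largest rise (top) and the 15 with the largest fall (bottom) under CHOEP in HD-MAR-2. Red points are the 3 CHOEP-treated arrays and dark grey points the 3 untreated arrays of each gene, with a line at the group mean. The groups do not overlap in any of these genes, and TSC22D3 stands at 13.89 to 14.05 with CHOEP and at 9.18 to 9.88 untreated, and TPRG1 at 5.75 to 6.28 with CHOEP and at 9.14 to 9.37 untreated.

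Most genes of the list known to be induced by glucocorticoids rose. Like the other lists it was written with earlier results of these data known, so that its shares are no independent test. Of 25 tested, 20 rose (80.0%, against 18.5% of all genes), 1 fell and 13 were called up (52.0%, against 2.27%), with a median of 1.13 against -0.01 for all genes. After TSC22D3, DDIT4, ISG20 and ZFP36L2 came TXNIP (1.80), SOCS1 (1.77), RGS1 (1.71), NR3C1 (1.70), BTG1 (1.69), FKBP5 (1.59), BCL2L11 (1.33), NFKBIA (1.30) and KLF13 (1.13). The receptor NR3C1 itself lay between 9.15 and 9.28 with CHOEP and between 7.49 and 7.56 untreated (SE 0.15, adjusted p = 2.0e-09). FKBP5, the co-chaperone that lowers the affinity of the receptor for its ligand, had 13.46, 13.27 and 13.27 with CHOEP and 11.61, 11.91 and 11.71 untreated. Both genes showed no overlap between groups. MT2A, a metallothionein that glucocorticoids can induce, fell (-0.82), and MT1X (0.43), GLUL (0.32), GLCCI1 (0.28) and ZFP36 (0.08) did not pass. Without untreated replicate 1, 18 members rose and 13 were called up.

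The BCL2 family controls the release of cytochrome c from mitochondria. Of 15 members 5 rose (33.3%, against 18.5% of all genes) and 2 fell (13.3%, against 19.3%). The median was 0.27, and -0.06 with median scaling, which gave 3 that rose and 3 that fell. The genes that rose encode BH3-only proteins, which promote death. They were BMF, BIK (1.63), BCL2L11, which encodes BIM (1.33), HRK (0.64) and BAD (0.28). BIK had 8.17, 8.58 and 8.44 with CHOEP and 6.90, 6.83 and 6.57 untreated, and BCL2L11 had 8.16, 8.16 and 8.11 with CHOEP and 6.72, 7.13 and 6.60 untreated. Of the genes that oppose death, BCL2 (-0.63, adjusted p = 0.0085) and BCL2L2 (-0.48) fell. Neither passed without untreated replicate 1 (-0.39 and -0.42). MCL1 (-0.01), BCL2L1 (-0.10), BAX (0.31), BAK1 (0.56), BID (0.09), BCL2L13 (0.27), BBC3 (0.05) and PMAIP1 (-0.14) did not pass. Of 18 death receptor and caspase genes 5 rose (27.8%, against 18.5% of all genes) and 1 fell. CRADD (1.14), CFLAR (0.88), CASP8 (0.77), CASP9 (0.75) and FADD (0.43) rose, and CASP4 fell (-0.63). CASP8, CFLAR and FADD act at death receptors, CASP9 downstream of mitochondria, and CASP4 is an inflammatory caspase. The median of the list was 0.14. With median scaling it was -0.12, with 3 that rose and 3 that fell, and without untreated replicate 1 7 rose and 1 fell.

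Of 23 targets of p53, the factor that DNA damage activates, 5 rose (21.7%, against 18.5% of all genes) and 2 fell, with a median of 0.05. With median scaling 1 rose and 4 fell (median -0.18). Apart from TP53INP1, the genes that rose were XPC (0.54), CCNG2 (0.54), GADD45A (0.45) and SESN1 (0.39). CDKN1A, which encodes the CDK inhibitor p21, fell (-0.73, adjusted p = 0.00047). It had 5.63, 5.88 and 6.26 with CHOEP and 6.50, 6.84 and 6.62 untreated, and 1 of 3 CHOEP-treated arrays detected it. MDM2 (-0.24, adjusted p = 0.29), BBC3 and BAX, textbook targets of p53, did not pass.

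Genes of DNA replication fell almost throughout. Of 56 tested, 47 fell (83.9%, against 19.3% of all genes) and 13 were called down (23.2%, against 2.19%), with a median of -0.76. None rose, and none was higher with CHOEP at an unadjusted p under 0.05. In 50 of the 56 every CHOEP-treated array was below every untreated one, against 26.2% of all genes. Under the other scalings and without untreated replicate 1 (46 fell, median -0.74) the direction of the list was the same.

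At the origins, where ORC and CDC6 load the MCM helicase, 5 of 10 genes fell. MCM10, which helps to start the helicase, had 10.41, 10.28 and 10.41 with CHOEP and 11.72, 11.73 and 11.64 untreated (-1.34, adjusted p = 2.0e-10). CDC6 was detected on all untreated arrays and on none with CHOEP, and was at least 1.86-fold lower (adjusted p = 1.8e-07). ORC1, ORC3 and the inhibitor GMNN fell too, while ORC2, ORC4, ORC5, ORC6 and CDT1 did not pass, with values between -0.22 and -0.08. In the MCM2-7 and CMG helicase 10 of 11 fell, led by MCM4 with 12.37, 12.17 and 12.31 with CHOEP and 13.55, 13.57 and 13.67 untreated (-1.31) and MCM2 (-1.10). Both groups of arrays were tight for MCM4 and lay more than 1 apart.

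Of the polymerases and primase, 9 of 10 fell, with POLE2 (-1.18) and POLD3 (-1.13) below -1 and PRIM2 (0.13) not passing. All 11 genes of the sliding clamp, its loaders and lagging-strand processing fell, with a median of -0.78. Fork protection and RPA gave 6 of 7, with CLSPN, the claspin that relays stalled forks to CHEK1, at 6.11, 6.13 and 5.92 with CHOEP and 7.40, 7.51 and 7.41 untreated (-1.38, SE 0.24, adjusted p = 5.6e-05). CLSPN was detected on 1 of 3 CHOEP-treated arrays. RRM2, the small subunit of the ribonucleotide reductase that makes deoxynucleotides, had 10.23, 10.03 and 10.48 with CHOEP and 11.92, 11.81 and 11.62 untreated, a 2.90-fold fall (adjusted p = 1.2e-09). In all, 6 of the 7 genes of nucleotide supply and uracil removal fell.

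The regulators that lead into S phase moved less evenly. Of 26 tested, 14 fell (53.8%, against 19.3% of all genes) and 4 were called down (15.4%, against 2.19%). None rose (median -0.44), and 18 fell without untreated replicate 1. E2F4 (0.31) was the 1 member higher at an unadjusted p under 0.05. Besides CCND2, the called genes were E2F7 (-1.46), CCNE1 (-1.35) and CDC25A (-1.28). CCNE1, the cyclin that activates CDK2, had 8.29, 8.50 and 8.22 with CHOEP and 9.49, 9.81 and 9.74 untreated. CDC25A, the phosphatase that releases CDK2, had 9.52, 9.69 and 9.79 with CHOEP and 10.71, 11.02 and 11.11 untreated. SKP2 (-0.98), TFDP1 (-0.95), CDK4 (-0.86), RB1 (-0.70) and CDK2 (-0.68) fell as well. MYC had 13.12, 13.03 and 13.25 with CHOEP and 13.43, 13.67 and 13.72 untreated, a small fall (-0.47, adjusted p = 0.0057) without overlap. E2F1 (-0.13), E2F2 (-0.17), CCND3 (-0.02) and CDK6 (0.12) did not pass.

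E2F factors bind DNA at a motif spelled TTTCCCGC, TTTGGCGC, TTTCGCGC or TTTGCCGC, searched here on both strands of the RefSeq promoters of build GRCh38.p14, from 250 bases before to 50 after the start of each gene. One of these words stood in 19 of 48 matched promoters of the replication list (39.6%) and in 7 of 21 of the G1/S list (33.3%), against 481 of 8231 promoters of all genes tested (5.84%) and 908 of 27305 of all promoters (3.33%). In the mitotic list it was 3 of 34 (8.82%). A match is a stretch of letters and not a measured site. Stretches of 75 bases from 5 genes that fell are given to show the words in place (capitals), each in the direction of its gene, at chr1:35769964-35770038 (minus strand) for CLSPN, chr3:48188418-48188492 (minus) for CDC25A, chr14:49688200-49688274 (minus) for POLE2, chr17:40287824-40287898 (plus) for CDC6 and chr3:127598356-127598430 (plus) for MCM2.
CLSPN: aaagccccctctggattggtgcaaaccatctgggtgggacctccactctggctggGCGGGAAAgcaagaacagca
CDC25A: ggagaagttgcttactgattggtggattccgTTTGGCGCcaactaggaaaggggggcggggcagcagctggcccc
POLE2: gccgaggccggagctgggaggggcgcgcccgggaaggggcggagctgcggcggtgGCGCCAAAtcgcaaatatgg
CDC6: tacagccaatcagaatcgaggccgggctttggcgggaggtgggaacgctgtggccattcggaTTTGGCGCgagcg
MCM2: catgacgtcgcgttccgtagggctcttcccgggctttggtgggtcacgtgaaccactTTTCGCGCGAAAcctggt

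**Figure D2:**
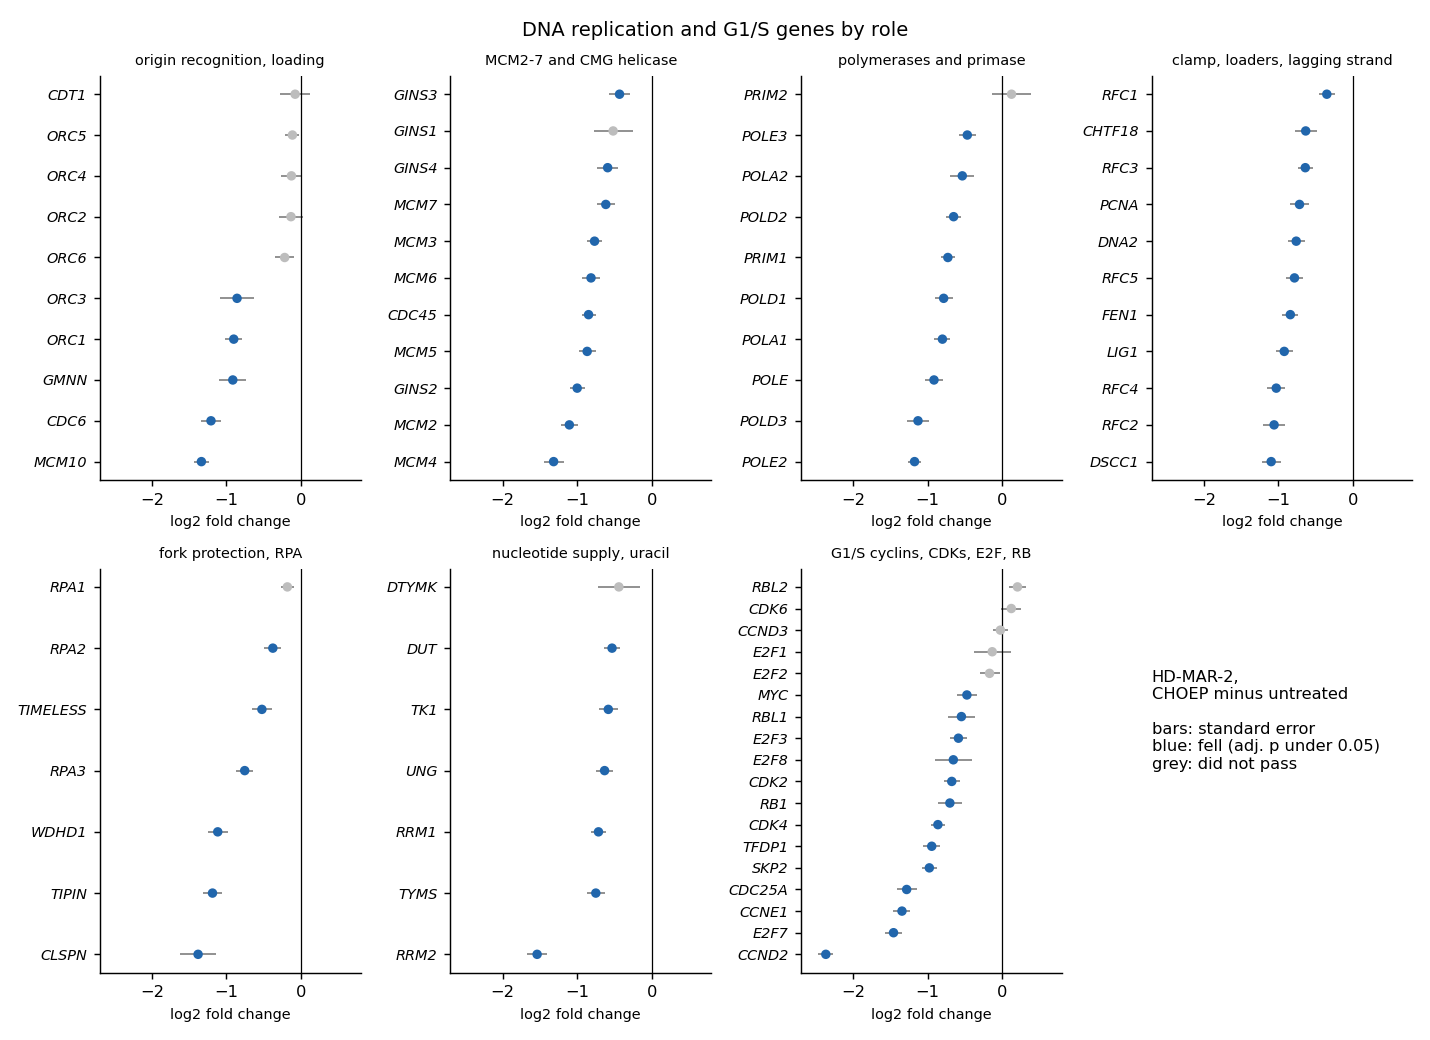
Log2 fold change (CHOEP minus untreated, x axis) of DNA replication and G1/S genes in HD-MAR-2, in 7 panels by role, with bars for the standard error, blue for genes that fell and grey for genes that did not pass. All members of the clamp and loader panel lie left of 0, and CCND2 lies farthest left at -2.37.

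Among mitotic genes falls were about as common as among all genes. Of 41 tested, 9 fell (22.0%, against 19.3% of all genes), among them SPC25 (-0.80) and the spindle motor KIF11 (-0.72), and CDC20, an activator of the anaphase-promoting complex, rose (0.40). The median was -0.12 and no member was called. With median scaling 17 fell and 2 were called down, and without untreated replicate 1 8 fell and none rose. TOP2A, the topoisomerase that doxorubicin and etoposide act on, had 13.62, 13.68 and 13.47 with CHOEP and 13.75, 13.66 and 13.59 untreated, with overlap (adjusted p = 0.68), and TOP2B was at 0.06 (adjusted p = 0.79).

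Counted by gene, most histone genes went the other way from replication. Of 24 tested, 16 rose (66.7%, against 18.5% of all genes) and 8 were called up (33.3%, against 2.27%), with a median of 0.63. The summed linear signal of the 24 did not shift, at 129495 to 136244 with CHOEP and 129452 to 136393 untreated. With median scaling 10 rose and 4 were called up (median 0.38). H4C1 had 8.79, 9.22 and 9.13 with CHOEP and 6.63, 6.73 and 6.69 untreated (2.36, adjusted p = 8.2e-12). H2BC21 (1.59), H2AC6 (1.55), H4C14 (1.26), H2BC5 (1.24) and H2AC18 (1.15) followed. The variants H2AX (-0.56) and H2AZ1 (-0.42), which are made outside the clusters of replication histones, fell. Histone genes are near-identical in sequence, and a probe may bind several. Which forms of histone mRNA the labelling took up was not tested, so that these values need not stand for all histone mRNA.

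Genes that make nucleotides, sterols and ribosomes fell in number, mostly by less than 2-fold. In purine, pyrimidine and folate synthesis 17 of 24 fell (70.8%, against 19.3% of all genes, median -0.59). Among them were DHODH (-0.99), the folate carrier SLC19A1 (-0.98), PAICS (-0.96) and GMPS (-0.93), and CTPS2 rose (0.66). In cholesterol synthesis 12 of 20 fell (60.0%, median -0.49), with the regulator SREBF1 (-0.86), IDI1 (-0.81) and CYP51A1 (-0.77). In ribosome biogenesis 15 of 28 fell (53.6%, median -0.36), with BYSL (-0.82) and NOLC1 (-0.79). Of 67 ribosomal proteins 11 rose (16.4%, against 18.5% of all genes) and 2 fell (median 0.12). None of these genes was called in this scaling, whereas with median scaling 8 of the nucleotide genes, 3 of the cholesterol genes and 2 of the ribosome biogenesis genes were called down. In glycolysis 10 of 23 fell (43.5%, median -0.19), with ENO2 (-0.92) and PKM (-0.78), beside the rise of PFKFB2. In oxidative phosphorylation 5 of 53 fell (9.43%, against 19.3% of all genes) and 1 rose (14 and 0 with median scaling).

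Of 49 genes of DNA damage signalling and repair, 25 fell (51.0%, against 19.3% of all genes) and 4 rose (8.16%, against 18.5%). The median was -0.32, and 3 were called down (6.12%, against 2.19%). USP1, which removes ubiquitin from FANCD2 and PCNA (-1.15), the ubiquitin ligase FANCL (-1.12) and the mismatch protein MSH6 (-1.06) were called down, MSH6 not without untreated replicate 1 (-0.95). With median scaling 12 genes of the list were called down. RAD54L (-0.99) and BRCA1 (-0.88) of homologous recombination and the checkpoint kinase CHEK1 (-0.82) fell too. DCLRE1C (0.74), XPC (0.54), MGMT (0.35) and ATM (0.35) rose.

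Of 23 genes listed for FOXO factors and quiescence, 14 rose (60.9%, against 18.5% of all genes) and none fell (median 0.54). With median scaling it was 10 and 1 (median 0.25). In the main scaling 1 member was lower at an unadjusted p under 0.05. Whether FOXO factors drive these genes here was not tested. After PIK3IP1 came TXNIP, FBXO32, a ubiquitin ligase of muscle wasting (1.77), MXD4, a partner of MAX that opposes MYC (1.76), KLHL24 (1.24), KLF2 (1.19) and YPEL5 (1.07). TXNIP, the inhibitor of thioredoxin, had 9.38, 9.47 and 9.58 with CHOEP and 7.26, 8.01 and 7.76 untreated. FOXO1 (0.21) and FOXO3 (0.23) did not pass. TXNIP, a member of both this list and the glucocorticoid list, held a glucocorticoid receptor core word (ACANNNTGT) and a FOXO word (TGTTTAC), both in capitals below on their own strands, at chr1:145996669-145996754 (minus). The FOXO word stood in 3 of 22 matched promoters of the FOXO list and 3 of 23 of the glucocorticoid list. In the G1/S list it was 3 of 21, against 2.22% of all genes tested and 3.41% of all promoters. The receptor core stood in 2 of 23 of the glucocorticoid list and 3 of 22 of the FOXO list. In the cholesterol list it was 2 of 18 and in the histone list 2 of 23. Its share was 2.45% over all genes tested and 5.45% over all promoters, and these small counts were not tested.
TXNIP: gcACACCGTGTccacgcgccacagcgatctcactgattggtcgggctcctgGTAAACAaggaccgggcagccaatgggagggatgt

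In PI3K, AKT and mTOR signalling 12 of 30 genes rose (40.0%, against 18.5% of all genes) and 4 fell (13.3%, against 19.3%), with a median of 0.06. The balance turned with median scaling, to 3 that rose and 10 that fell (median -0.23), and without untreated replicate 1 8 rose and 3 fell (median -0.05). DDIT4, the arginine sensor CASTOR1 (1.25) and the mTORC2 subunit PRR5 (1.09) were called up (10.0%, against 2.27% of all genes). With median scaling 1 gene of the list was called up. The catalytic subunit PIK3CB (-0.69) and the phosphatase PHLPP1 (-0.54) fell. AKT1 (-0.30), AKT2 (-0.33) and RHEB (-0.19) did not pass.

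**Figure D3:**
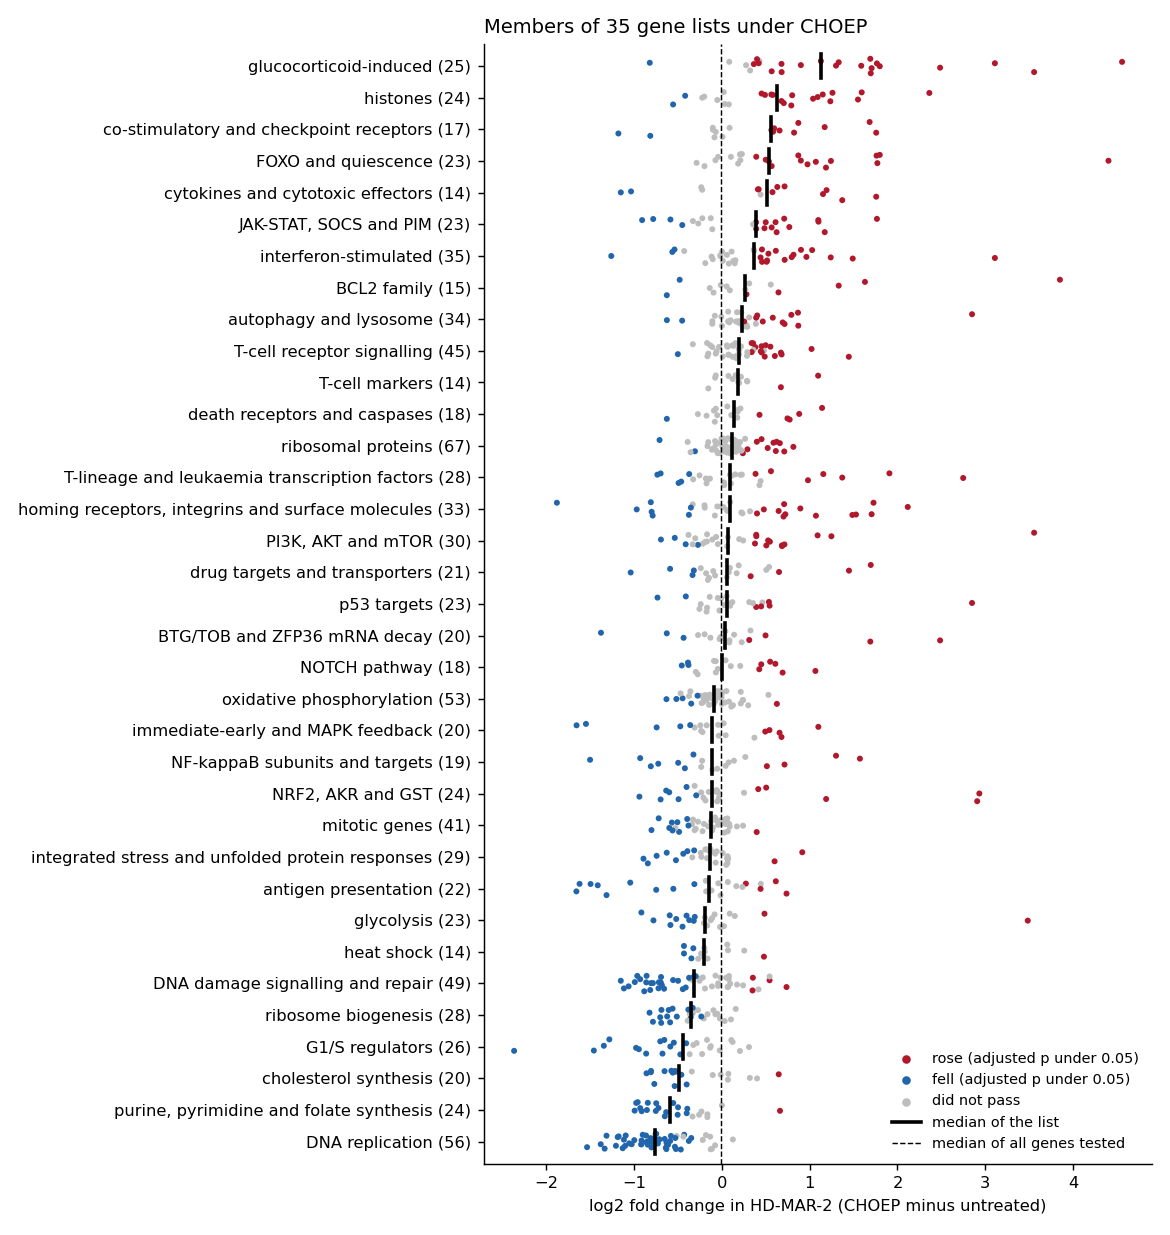
Log2 fold change in HD-MAR-2 (CHOEP minus untreated, x axis) of every tested member of 35 gene lists, with the number tested in brackets, red for genes that rose, blue for genes that fell and grey for genes that did not pass. Thick bars are list medians and the dashed line is the median of all genes (-0.01). Glucocorticoid-induced genes stand at the top (median 1.13) and DNA replication at the bottom (-0.76).

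Of 16 genes of MHC class II, a group formed after the values were seen, 10 fell, 6 were called down and none rose. Among all genes 19.3% fell and 2.19% were called down. HLA-DRB3 (-0.15), HLA-DOA (-0.12), HLA-DMA (-0.04), HLA-DOB (0.03) and the regulators RFXANK (0.20) and RFX5 (0.20) did not pass. CD74, the invariant chain that guards the groove of class II, had 9.73, 9.88 and 9.96 with CHOEP and 11.69, 11.17 and 11.68 untreated (3.16-fold lower, adjusted p = 6.2e-10). HLA-DRA had 9.68, 9.67 and 9.43 with CHOEP and 11.33, 11.05 and 11.26 untreated (adjusted p = 2.1e-09). No CHOEP-treated array of either gene reached an untreated one. HLA-DRB1 (-1.50) and HLA-DPA1 (-1.31) fell, and HLA-DPB1 was at least 1.52-fold lower (adjusted p = 7.8e-09). Of the class I genes HLA-B fell (-1.04) and HLA-E rose (0.74). CIITA, the activator of class II genes, was detected on none of the 6 arrays. The regulator RFXAP (-0.60) and HLA-DMB (-0.75) fell. In the antigen presentation list 9 of 22 genes fell (40.9%, against 19.3% of all genes) and 6 were called down (27.3%, against 2.19%). Transcripts of HLA genes resemble each other, and their probes may cross-bind.

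Signalling downstream of the T-cell receptor runs from LCK and ZAP70 through LAT to calcium and NFAT. Of 45 genes listed for it, 15 rose (33.3%, against 18.5% of all genes) and 1 fell (median 0.19). With median scaling 2 rose and 1 fell (median -0.09), and without untreated replicate 1 11 rose and none fell. RCAN1, an inhibitor of calcineurin that NFAT itself induces, had 13.46, 13.36 and 13.44 with CHOEP and 12.29, 11.72 and 11.92 untreated (1.45), and UBASH3B, a phosphatase that restrains the receptor, was at 1.02 (0.95 and no longer called without untreated replicate 1). The proximal kinase LCK was at 0.16 (adjusted p = 0.40), with 10.92 to 11.04 with CHOEP and 10.73 at the lowest untreated array, and the groups overlapped. FYN, the other SRC-family kinase of T cells, rose by 0.36 (adjusted p = 0.036), short of the fold threshold. It had 12.09, 12.10 and 12.04 with CHOEP and 11.74, 11.68 and 11.75 untreated. FYN no longer passed when any 1 of the 6 arrays was left out. ZAP70 (0.07), LAT (0.06) and PLCG1 (0.08) did not pass. CD7 rose, with 12.29, 12.22 and 12.28 with CHOEP and 10.73, 11.44 and 11.33 untreated (1.10, and 0.88 without untreated replicate 1), while CD3D (0.07) and CD3E (-0.15) did not pass.

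Genes of killer cells rose in part, while PRF1, GNLY, GZMK, GZMM and FASLG were detected on none of the 6 arrays. CD160, a receptor of cytotoxic cells, had 8.98 to 9.06 with CHOEP and 7.01 to 7.39 untreated, with no overlap. EOMES (1.37), GZMA (1.19) and GZMB (at least 1.41-fold higher) rose too, while the chemokine CCL5 (-1.15) and the cytokine IL32 (-1.03) fell. In the list of cytokines and cytotoxic effectors 14 of 33 genes on the array were tested. Of these 14, 9 rose (64.3%, against 18.5% of all genes) and 2 fell (14.3%, against 19.3%). It was 6 and 4 without untreated replicate 1 and 4 and 4 with median scaling. In JAK-STAT signalling 13 of 23 rose (56.5%, against 18.5% of all genes) and 4 fell (17.4%, against 19.3%). The feedback inhibitors SOCS1 (1.77) and SOCS2 (1.10), STAT3 (1.17) and the kinase PIM2 (1.10) were called up (17.4%, against 2.27%). PIM1 (-0.78), PIM3 (-0.59) and the receptor chain IL2RB (-0.91) were lower. With median scaling 6 rose and 5 fell, with 1 called up and 2 called down. Of 35 interferon-stimulated genes 16 rose (45.7%) and 3 fell (8.57%, median 0.36), or 7 and 5 with median scaling (median 0.04). IFIT3 had 8.59, 8.84 and 8.77 with CHOEP and 7.22, 7.28 and 7.24 untreated (1.49). The RNA sensor IFIH1 was at least 1.68-fold lower.

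NF-kappaB genes split. The inhibitor NFKBIA had 13.67, 13.52 and 13.72 with CHOEP and 12.17, 12.47 and 12.37 untreated (1.30, adjusted p = 2.4e-08), and TNFAIP3 (0.71) rose, while TRAF1 (-1.50), NFKB1 (-0.93), NFKB2 (-0.50) and RELA (-0.32) fell. Among immediate-early genes EGR1 had 9.52, 9.48 and 9.38 with CHOEP and 11.34, 10.95 and 10.73 untreated (-1.55), PHLDA1 fell (-1.66) and JUN rose (1.10, and 0.99 without untreated replicate 1). On the cell surface 13 of 33 homing and adhesion genes rose (39.4%, against 18.5% of all genes) and 7 fell (21.2%, against 19.3%). The laminin receptor chain ITGA6 had 8.16, 8.24 and 8.27 with CHOEP and 6.26, 5.84 and 6.21 untreated (2.12), and P2RX1 (1.73), CD53 (1.53) and CD52 (1.49) rose. The inhibitory receptor BTLA (1.68) and its ligand TNFRSF14 (1.17) rose, and CD70 (-1.18) fell. Of the drug transporters, ABCC5 had 11.17, 11.38 and 11.17 with CHOEP and 9.72, 9.77 and 9.89 untreated (1.45), and ABCC4 fell (-1.04).

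The response of HD-MAR-2 was set against the mean response of the other 4 lines by the contrast of the changes, over the same 10159 genes. In 136 genes (1.34%) the response lay above that of the other lines by at least 1 and in 137 (1.35%) below it. These genes were kept by detection in HD-MAR-2, so that genes detected only in other lines are not counted. On at least 3 of all 30 arrays 12482 genes were detected. Genes not detected in the other lines, such as ANGPTL7 and CDH23, are counted, although no response could be read there. The counts by line are therefore tilted toward HD-MAR-2. Among the 10159 genes HH had 162 calls up and 54 down, SUP-T1 161 and 83, KARPAS-299 41 and 44, and JURKAT 5 and 0. SUP-T1 shared 60 calls up, which were 26.0% of those of HD-MAR-2 and 37.3% of its own, and HH shared 43 (18.6% and 26.5%). Calls down were shared in 24 genes with SUP-T1 and 9 with HH. Arrays of each line were compared with untreated arrays of that line. The paper lists the highest IC50 of CHOEP for HD-MAR-2 among these lines, so that line and dose cannot be told apart in these comparisons.

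Of the leading genes, TSC22D3 was higher with CHOEP in all lines, most in SUP-T1 (6.16), then HH (3.09), JURKAT (3.04) and KARPAS-299 (2.03), and its difference of 0.98 did not reach 1. FKBP5 differed by 0.32 from the other lines, which did not pass (adjusted p = 0.11). NR3C1 differed by 1.28 (adjusted p = 3.4e-06), with HH at 0.74, SUP-T1 at 0.64, JURKAT at 0.47 and KARPAS-299 at -0.20. Beside the replication median of -0.76 in HD-MAR-2, SUP-T1 had -0.66, HH -0.10, JURKAT -0.04 and KARPAS-299 0.05. The histone median of 0.63 stood beside 0.35 in HH, 0.05 in JURKAT and KARPAS-299 and -0.04 in SUP-T1.

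CD74 (difference -1.44), HLA-DRA (-1.40), HLA-DRB1 (-1.26) and HLA-DPA1 (-1.20) were among the genes below. These were detected on 12 of the 24 arrays of the other lines, HLA-DRA on 15. HLA-B, detected on all 24, differed by -1.03. CCND2, at -2.37 here, was at -0.59 in HH, -0.12 in JURKAT, -0.05 in KARPAS-299 and 0.01 in SUP-T1, and was detected on 12 of the 24.

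**Figure D4:**
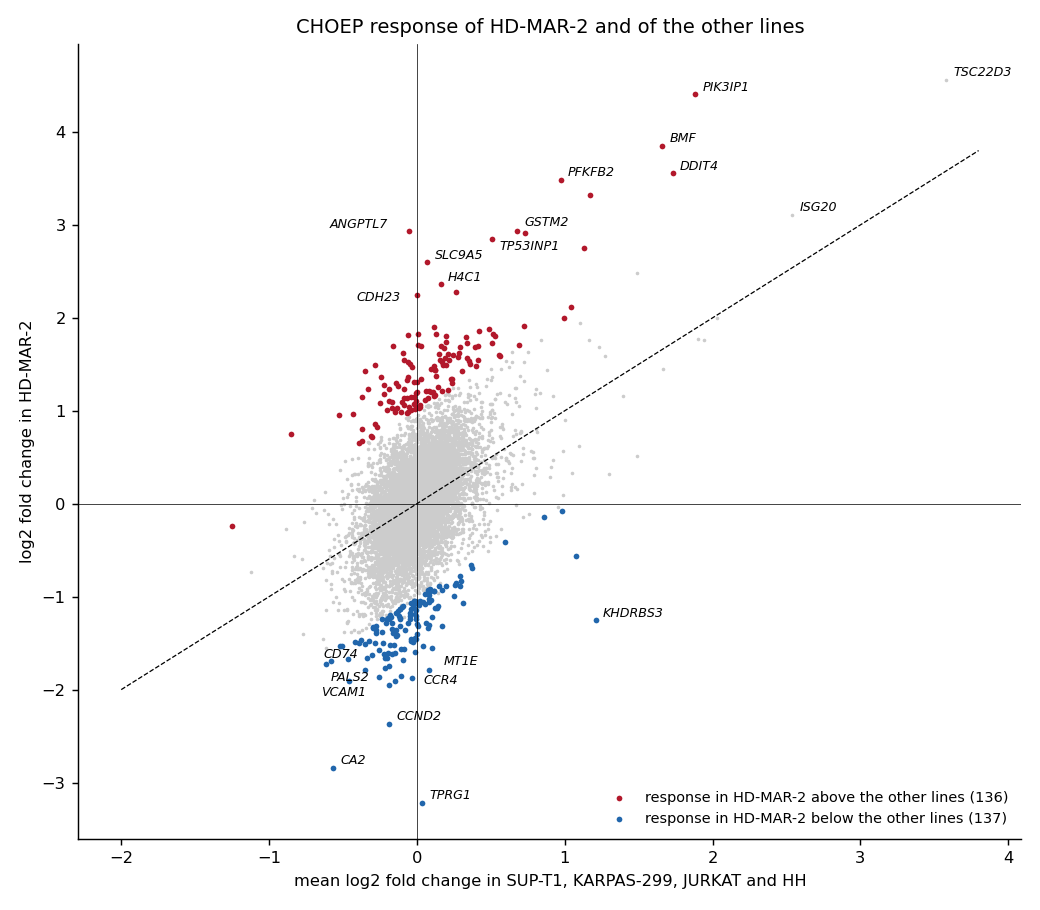
Log2 fold change of each gene in HD-MAR-2 (y axis) against the mean of SUP-T1, KARPAS-299, JURKAT and HH (x axis), with the dashed line at equal change. Red points are the 136 genes above and blue points the 137 genes below, and TPRG1 lies lowest at -3.22.

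**Figure D5:**
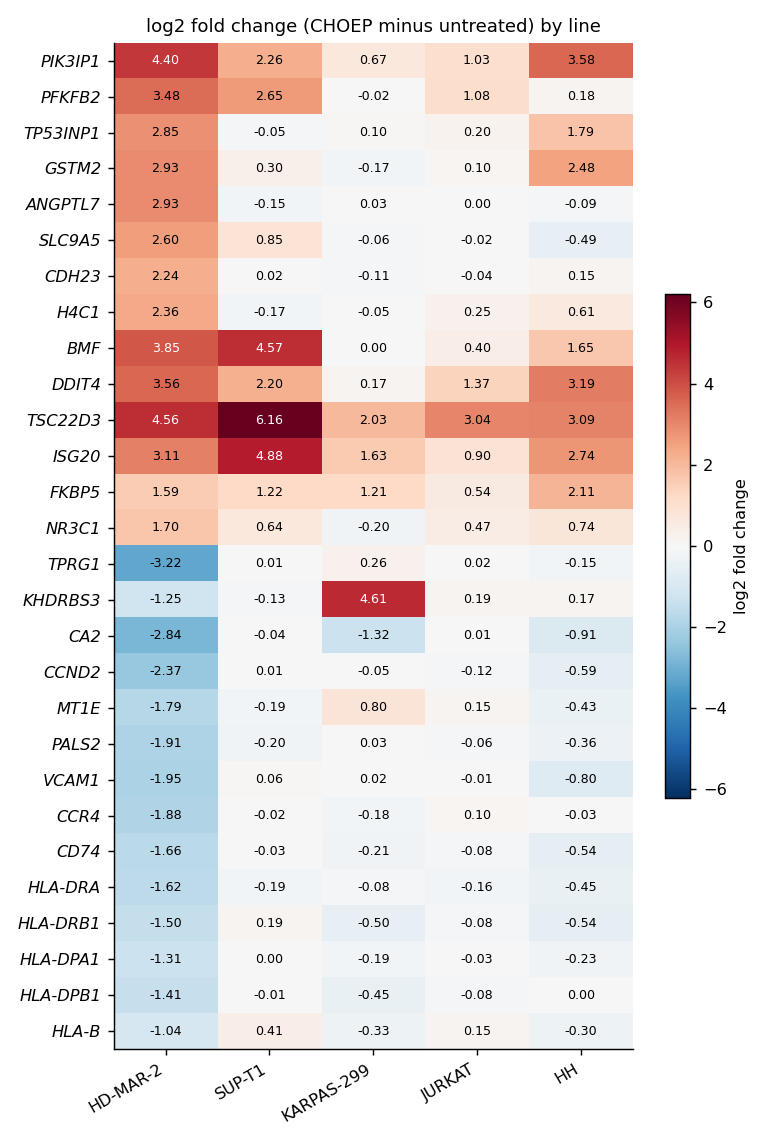
Log2 fold change (CHOEP minus untreated) of 28 genes in each of the 5 lines, red for higher and blue for lower with CHOEP. ANGPTL7 and CDH23 were detected on no array of the other lines, where their values are not above background. TSC22D3 is higher in every line, from 2.03 in KARPAS-299 up to 6.16 in SUP-T1, while CCND2 is at -2.37 in HD-MAR-2 and between -0.59 and 0.01 in the others, and VCAM1, CCR4 and HLA-DPB1, which no CHOEP-treated HD-MAR-2 array detected, are drawn at fitted values that have only a bound there.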

How the data were processed

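RNA of CHOEP-treated and untreated cultures was hybridised to Illumina HumanHT-12 v4 arrays, read with BeadStudio 3 per the labels. The authors deposited the intensity of each probe before normalisation with a detection p-value (the share of negative controls as bright), and separately log2 values after robust spline normalisation in lumi. Deposited intensities were background-corrected with the deposited detection p-value, quantile normalised (neqc, offset 16) and set to log2 with limma 3.58.1 in R 4.3.3. Kept were probes that 3 or more HD-MAR-2 arrays detected at p under 0.01 (17680 of 47323, 13664 of them with 1 gene symbol). All 30 arrays entered 1 fit with 10 group means and 20 residual degrees of freedom, and p-values were adjusted over all kept probes. The response of HD-MAR-2 minus the mean of the other 4 lines was a contrast of that fit. The scripts were tested on simulated data. The named genes were the 15 with the largest change in each direction, the 8 with the largest difference from other lines in each direction, up to 6 members with the largest change in each of 39 gene lists, markers and drug targets, and members of small lists that did not pass, without provisional symbols. Other members were named after their values were seen. Members and lists were chosen with earlier results of these data known. Alternatives were the authors' values, 2 other normalisations, other filters, each array left out and a replicate block. Array number limits the precision.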

Additional observations from a re-analysis of the deposited data

Results flagged for a closer look

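In 16 genes the response of HD-MAR-2 differed from the mean of the other 4 lines in the limma contrast and was among the 8 largest differences in its direction. Above the other lines were ANGPTL7 (2.99), SLC9A5 (2.53), PIK3IP1 (2.52), PFKFB2 (2.51), TP53INP1 (2.34), GSTM2 (2.25), CDH23 (2.24) and H4C1 (2.20). ANGPTL7, a secreted angiopoietin-like protein, had 10.38, 10.45 and 10.39 with CHOEP and 7.39, 7.61 and 7.43 untreated. Like CDH23 it was detected on 0 of the 24 arrays of the other lines. For both genes the values in the other lines are not above background, so that no response could be compared there. PIK3IP1 and GSTM2 were also higher in HH (3.58 and 2.48), and PFKFB2 in SUP-T1 (2.65).

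Below the other lines were TPRG1 (-3.25), KHDRBS3 (-2.46), CA2 (-2.27), CCND2 (-2.18), MT1E (-1.87), CCR4 (-1.85), PALS2 (-1.76) and VCAM1 (-1.76). CCR4 and VCAM1 were detected on no CHOEP-treated HD-MAR-2 array, so that their differences and ranks are those of fitted values not above background. They were detected on 6 of the 24 other arrays and TPRG1, CA2 and CCND2 on 12. KHDRBS3, an RNA-binding protein, was at -1.25 here, against 4.61 in KARPAS-299, 0.19 in JURKAT, 0.17 in HH and -0.13 in SUP-T1.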

How the results depend on the processing

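With the authors' values 126 genes were called up and 79 down, with quantile normalisation without background correction 126 and 85, and with median scaling 122 and 507 (560 rose and 3052 fell). Genes above and below the other lines numbered 75 and 43 with the authors' values, 65 and 41 with quantile normalisation and 88 and 251 with median scaling. Against KARPAS-299 alone 342 genes were above and 314 below, against JURKAT alone 210 were below and against HH alone 274. With each array left out, 220 to 262 genes were called up, 212 to 254 down, 1497 to 1771 rose, 1587 to 1818 fell, 135 to 160 were above and 132 to 164 below. The replicate block gave 231 up, 222 down, 1835 that rose and 1907 that fell, with 136 above and 136 below. Deviations of arrays with the same number correlated at 0.083, 0.0039 and 0.106, so that the numbers were not taken as pairs. The cause of these shifts was not tested. Of 4111 values of named genes under the alternatives, 3941 kept direction and side of the threshold, 154 no longer passed, 2 newly passed and 14 changed sign. With median scaling these were CD2 (-0.13), CD247 (-0.12), CD5 (-0.065), CDKN2D (-0.026), LAT (-0.26), LCK (-0.16), PLCG1 (-0.24), PTPRC (-0.087), TOP2B (-0.17), TRAT1 (-0.12) and ZAP70 (-0.24). With each array left out, LAT ranged between -0.030 and 0.12, PTPRC between -0.036 and 0.34 and ZAP70 between -0.021 and 0.15, below 0 without untreated replicate 1 for LAT and PTPRC and without CHOEP replicate 3 for ZAP70. COBLL1, NEK6 and XYLB were no longer called with the authors' values or with quantile normalisation, nor VCAM1 with quantile normalisation. Genes near background, such as CDKN1A and CLSPN with CHOEP, are limited by their signal.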

Other observations

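Groups noticed after the values were seen are given here as values. Of 162 small non-coding RNAs, 46 rose and 27 fell, with 19 called up, 2 down and a median of 0.01, where 18.5% of all genes rose, 19.3% fell, 2.27% were called up and 2.19% down. RNU4-2, an RNA of the spliceosome, had 11.69, 11.78 and 11.95 with CHOEP and 9.52, 9.48 and 9.58 untreated (2.28). RNU6ATAC (1.81), RNU4ATAC (1.70) and RNU11 (1.55), which serve the minor spliceosome, rose too. So did others, among them RNA5S9 (1.88), RNU1-3 (1.54) and RNU6-1 (1.44), while SNORD87 (-1.23) and SNORD30 (-1.09) fell. Copies of these RNAs are near-identical, and their probes may not tell them apart. Which forms of these RNAs the labelling took up was not tested.

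Of 10 genes of chromatin assembly, 8 fell and 6 were called down (median -1.07), where 19.3% of all genes fell and 2.19% were called down. SLBP, which binds the stem-loop of histone mRNA, had 10.98, 10.94 and 11.03 with CHOEP and 12.33, 12.35 and 12.33 untreated (-1.36). The helicase HELLS (-1.39) and the assembly factors CHAF1B (-1.21) and CHAF1A (-1.18) fell too.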
